A study of Mus musculus with 8 samples.

Results

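Esx1, Nkx1-2, Nr2e1 and Ovol1 encode transcription factors that are best known outside the spermatogonial stages present in the young testis. They were chosen by their lower signals in VRK1-deficient than in wild type testes on these same arrays, so their signals are described without a test. The 4 genes, of 27674 gene names on the array, were represented by 7 of 41174 probes. Esx1 had 1 probe, Nr2e1 had 1, Ovol1 had 2 and Nkx1-2 had 3. Of these 7 probes, 5 passed the filter on dim probes, which asks for 4 arrays well above background, and Nkx1-2 probe A_52_P144791 was so through its wild type arrays only.

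Total RNA came from testes of male mice at postnatal day 8, with 4 wild type and 4 VRK1-deficient biological replicates. VRK1, vaccinia-related kinase 1, is a nuclear serine/threonine kinase that acts in cell division. The VRK1-deficient mice were homozygous for a gene-trap insertion of β-geo, a fusion of β-galactosidase and neomycin resistance, in an intron of Vrk1. The allele came from 1 trapped embryonic stem cell line, was backcrossed to C57BL/6 mice and is hypomorphic, so some normal transcript remains. At this age the seminiferous tubules hold Sertoli cells, spermatogonia and the first spermatocytes, and the RNA was of all testicular cells together.

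Each sample was labeled with Cy3 and hybridized to 1 array. A signal is given as the log2 of the deposited background-subtracted intensity minus the log2 of the 75th percentile of that array, so a value of 0 lies at that percentile. Feature Extraction marks a spot as well above background when its signal clearly exceeds the local background. The 75th percentile was 642 to 848 on the wild type arrays and 548 to 745 on the VRK1-deficient arrays. Between 63.6% and 69.5% of spots were well above background. The 8 arrays lay on 2 slides, with replicates 1 and 2 of both genotypes on slide 1 and replicates 3 and 4 on slide 2. Wild type samples took the first positions of a slide and VRK1-deficient samples the others, so position and genotype cannot be told apart. Precision is limited by the number of arrays.

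The targeted gene was examined first. Vrk1 probe A_51_P102339 gave log2 signals of -0.20, -0.11, 0.59 and 0.35 in wild type replicates 1 to 4. The same probe gave -3.97, -3.68, -3.58 and -4.16 in VRK1-deficient replicates 1 to 4. The genotypes were far apart in every replicate, which fits the sample labels. Whether the Vrk1 probes lie upstream or downstream of the trapped intron was not worked out.

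Wild type replicate 1 stood apart from the other wild type arrays. Its correlation across probes was 0.970 to 0.986 with them and 0.988 to 0.991 with the VRK1-deficient arrays. Probes are not independent replicates, and no test was made of this. The differences of the 4 genes, those of called genes given with a p, and the pan germ cell list mean are therefore also given without it.

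Esx1 is an X-linked paired-like homeobox gene. It is expressed in the trophoblast of the placenta, where it is needed for normal growth of the labyrinth, and in male germ cells. Its probe A_51_P450248 (NM_007957) maps to chromosome X, from 131834651 to 131834710 in mouse build mm7. Log2 signals of Esx1 were -0.23, 1.73, 1.16 and 1.93 in wild type replicates 1 to 4. They were -2.11, -0.39, -0.82 and -1.46 in VRK1-deficient replicates 1 to 4. Every VRK1-deficient array was below every wild type array, with wild type replicate 1 and VRK1-deficient replicate 2 the closest at a gap of 0.17. Over all tested probes of the array, 7.28% had every VRK1-deficient array below every wild type array.

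Wild type testes averaged 1.15 ± 0.97 (SD, n = 4) for Esx1, and VRK1-deficient testes averaged -1.20 ± 0.75 (SD, n = 4). Esx1 thus differed by -2.35 on the log2 scale, a 5.09-fold lower signal that left 19.6% of the wild type level. On slide 1 alone the difference was -2.01, on slide 2 alone -2.69, and it was -2.81 when wild type replicate 1 was left out. Esx1 was well above background on all 8 arrays, and the error that Feature Extraction assigned to its signal was at most 10.2% of the signal. That error is of the spot alone. Wild type replicates of Esx1 spanned 2.16 on the log2 scale.

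Nr2e1, also called Tlx or tailless, encodes an orphan nuclear receptor. It acts mainly as a transcriptional repressor and keeps neural stem cells of the brain and retina proliferating. Its probe A_52_P47566 (NM_152229) maps to chromosome 10, from 42372693 to 42372752. Log2 signals of Nr2e1 were -4.73, -2.30, -2.98 and -3.09 in wild type replicates 1 to 4. In VRK1-deficient replicates 1 to 4 they were -5.85, -4.71, -5.49 and -5.97. The genotypes overlapped, because VRK1-deficient replicate 2 lay 0.02 above wild type replicate 1.

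Nr2e1 was well above background on 4 wild type arrays and on 2 VRK1-deficient arrays, replicates 2 and 3. Wild type arrays averaged -3.27 ± 1.03 (SD, n = 4) and VRK1-deficient arrays -5.50 ± 0.57 (SD, n = 4). Nr2e1 differed by -2.23, or 4.69-fold lower with 21.3% of the wild type signal left. VRK1-deficient replicates 1 and 4, which were not well above background, enter this average, so the fold is not exact. Slide 1 alone gave -1.76 and slide 2 alone -2.69, and the arrays other than wild type replicate 1 gave -2.71. A normexp background correction, which adds an offset to each signal, reduced the difference to -0.66. The assigned error was 10.1% to 15.2% of the signal in wild type and 15.1% to 32.6% in VRK1-deficient testes.

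Ovol1 encodes a zinc finger transcription factor of the OVO family. It represses its targets in differentiating epidermis, and in male germ cells it is required for normal passage through the pachytene stage of meiosis, in part by repressing Id2. Probe A_52_P441954 (NM_019935) maps to chromosome 19, from 5444015 to 5444074. Its log2 signals were -4.31, -3.09, -2.61 and -2.93 in wild type replicates 1 to 4. In VRK1-deficient replicates 1 to 4 they were -5.36, -4.10, -4.69 and -4.996. Wild type replicate 1 lay below VRK1-deficient replicate 2, and the other 3 wild type arrays lay above all VRK1-deficient arrays.

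For this Ovol1 probe the wild type average was -3.23 ± 0.74 (SD, n = 4), against -4.79 ± 0.53 (SD, n = 4) for VRK1-deficient arrays. The genotypes differed by -1.55, or 2.93-fold lower with 34.1% of the wild type signal left. The difference was -1.04 on slide 1 and -2.07 on slide 2, and leaving out wild type replicate 1 gave -1.91. With normexp it was -0.49. The probe was well above background on 4 wild type and 3 VRK1-deficient arrays. VRK1-deficient replicate 1, which was not, enters the average, so the fold is not exact.

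The second Ovol1 probe, A_51_P225827, was read from the same transcript on chromosome 19 from 5445063 to 5445122. Its log2 signals were -6.52, -4.80, -4.99 and -4.62 in wild type replicates 1 to 4. In VRK1-deficient replicates 1 to 4 they were -7.50, -6.50, -6.58 and -7.42. It was well above background on 3 wild type arrays and on 0 VRK1-deficient arrays, so only a lower bound of the fold is given. For such a bound the mean of the brighter genotype is set against the lowest signal among probes well above background on each array of the dimmer one, or the probe's own signal where that is higher. The second Ovol1 probe was at least 1.32-fold lower in VRK1-deficient testes, a log2 bound of 0.40, or 0.82 without wild type replicate 1. On slide 1 alone and under normexp the bound fell below 0, so those settings give no fold for this probe.

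Nkx1-2, also called Sax1, is an NK family homeobox gene that marks the caudal epiblast and the early neural tube of the embryo, where progenitors of spinal cord and paraxial mesoderm arise. Its 3 probes did not give the same picture. Probe A_52_P144791 (AF222442) maps to chromosome 7, from 129000334 to 129000393. Its log2 signals were -5.63, -5.16, -4.58 and -4.003 in wild type replicates 1 to 4. In VRK1-deficient replicates 1 to 4 they were -7.56, -5.81, -7.55 and -7.58. All 4 wild type arrays were well above background and 0 VRK1-deficient arrays were, which made the signal of this probe at least 1.72-fold lower in VRK1-deficient testes. On the log2 scale this bound was 0.78, against 1.05 without wild type replicate 1, 0.21 on slide 1, 1.36 on slide 2 and 0.04 under normexp. Before scaling, wild type replicate 1, read as well above background, and VRK1-deficient replicate 2, not so read, had close intensities of 13.5 and 13.2. The lowest signal read as well above background was -5.75 to -5.50 on VRK1-deficient arrays and -6.35 to -5.78 on wild type arrays. Detection thus differed between the genotypes. Below background the assigned error was 23.7% to 96.5% of the signal, and the order of these VRK1-deficient arrays is not read.

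Probe A_51_P470304 (NM_009123) of Nkx1-2 maps to the same chromosome, from 129001715 to 129001774. Its log2 signals were -4.92, -4.31, -4.94 and -4.30 in wild type replicates 1 to 4. In VRK1-deficient replicates 1 to 4 they were -5.39, -5.20, -5.39 and -5.10. Every VRK1-deficient array was below every wild type array, which held for 7.28% of all tested probes. The gap was 0.16. Wild type arrays averaged -4.62 ± 0.36 (SD, n = 4) and VRK1-deficient arrays -5.27 ± 0.14 (SD, n = 4), with 4 and 3 arrays well above background. VRK1-deficient replicate 1, which was not, enters the average, so the fold is not exact. The difference of -0.65, or 1.57-fold, was -0.68 on slide 1, -0.62 on slide 2 and -0.75 without wild type replicate 1. With normexp it was 0.04, so its direction depends on the background correction. Probe A_52_P222193 (AF223362) was not well above background on any array, and no fold is given for it.

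**Figure D1:**
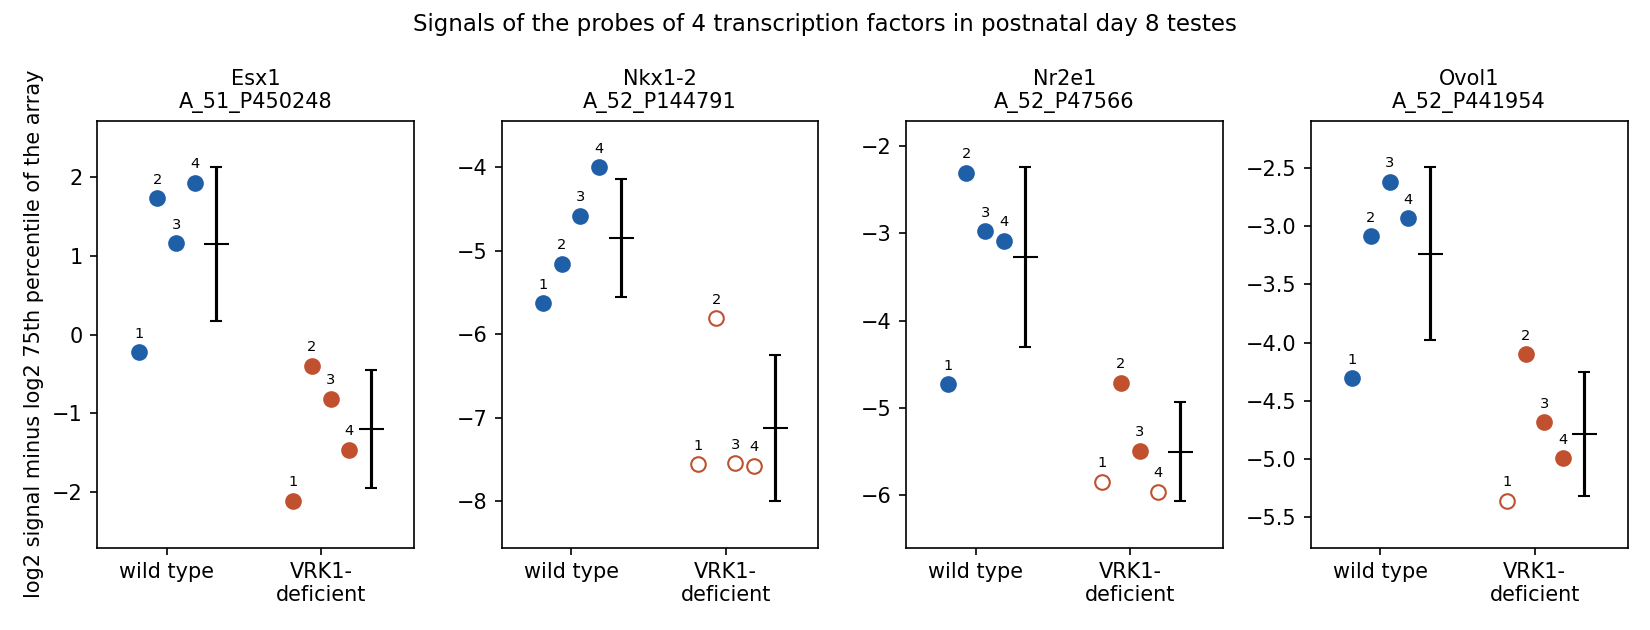
Log2 signal minus the log2 75th percentile of the array (vertical axis) for 1 probe of each gene in wild type and VRK1-deficient testes; each circle is 1 array with its replicate number, filled where the probe was well above background, and the bar is the mean ± SD (n = 4). Wild type replicate 1 is the lowest wild type array in all 4 panels, the open circles lie in the Nkx1-2, Nr2e1 and Ovol1 panels, and each panel has its own scale.

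Wild type replicate 1 was the lowest wild type array in the plotted probe of each of the 4 genes, and the order of the other wild type arrays differed between genes. VRK1-deficient replicate 2 was the highest VRK1-deficient array for Esx1, Nr2e1 and Ovol1, and for Nkx1-2 no order is read among arrays below background. Over 12256 tested probes with a negative difference, 53.9% had wild type replicate 1 lowest, 37.2% had VRK1-deficient replicate 2 highest, and 25.4% had both. Among the 530 probes called lower by limma, these shares were 79.1%, 61.1% and 52.5%, so the 2 positions were common in genes with lower signals. For Esx1, wild type replicate 1 minus the mean of the other wild type arrays was -1.84. For Nr2e1 this difference was -1.94, for Ovol1 -1.43 and for Nkx1-2 -1.05. In Nkx1-2 probe A_51_P470304, replicate 3 was lowest in wild type and replicate 4 highest in VRK1-deficient testes.

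Likeness between 2 probes was measured as the root mean square difference of their log2 signals over the 8 arrays, each centred on its own mean, so that a value of 0 would be the same pattern and size. It is not given for Nkx1-2, whose probe A_52_P144791 was below background on every VRK1-deficient array. Esx1 and Nr2e1 were at 0.37 from each other, Nr2e1 and Ovol1 at 0.50, and Esx1 and Ovol1 at 0.54. The measure includes the genotype difference by which the members were chosen. Likeness among the members, and lower VRK1-deficient signals in their nearest genes, were therefore set in part in advance. For Nr2e1, 2 of the 8 arrays were below background, which limits its values.

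Among 14743 candidate genes, those nearest to Esx1 were Meioc, Mybpc2, Ccnb3, Prss50 and Gal3st1. Meioc, which holds germ cells in the meiotic programme, was at a root mean square difference of 0.15 from Esx1. Ccnb3, a cyclin of meiotic cells, was at 0.24, and Prss50, a testis serine protease, was at 0.25. Meioc differed by -2.30 and Prss50 by -2.57 on the log2 scale, and both were well above background on all 8 arrays. Mybpc2, a myosin binding protein of fast muscle, was so on 1 VRK1-deficient array, Gal3st1, which sulfates the germ cell glycolipid seminolipid, on 2, and Ccnb3 on 3. The places of these 3 rest in part on signals below background, and under normexp their differences were -0.37, -0.55 and -0.73.

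Ovol1 had 5 nearest genes of varied function. Slc32a1, the vesicular transporter of GABA, was at a root mean square difference of 0.13 from Ovol1. Dusp2, a phosphatase of mitogen-activated kinases, was at 0.13. Trim36, a ubiquitin ligase, was at 0.14, and Zbtb32, a zinc finger repressor, was at 0.15. The log2 differences of these 4 ran from -1.53 to -1.36, and they were well above background on all 8 arrays. Under normexp the difference was -0.88 for Slc32a1 and -0.52 for Trim36. Ccdc116, the other of the 5, was well above background on 1 VRK1-deficient array only, and its difference under normexp was -0.24, so its place is not read further.

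Nr2e1 was nearest to Plk5, a member of the polo-like kinase family, at 0.36. Hmx1, a homeobox gene of the developing eye and nervous system, was at 0.38 from Nr2e1, and like Plk5 it was well above background on all 8 arrays. Vax2, a homeobox gene of the developing eye, Ccnb3 and Map3k9 completed the 5. They were well above background on 2, 3 and 1 VRK1-deficient arrays, and under normexp Vax2 was at a difference of -0.47 and Map3k9 at -0.11, so their places rest in part on signals below background. Ccnb3 was among the nearest genes of both Esx1 and Nr2e1. The 4 genes themselves were left out of these lists. Esx1 was at 0.37 from Nr2e1, close to the 0.38 of Hmx1. Because both members were chosen by their lower signals, no order is read from this. With a normexp background correction, 0 of the 5 genes were retained for Nr2e1, 1 for Ovol1 and 2 for Esx1.

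All 7 measured genes of a pan germ cell marker list had lower mean signals in VRK1-deficient testes, as had 45.1% of 17941 tested genes of the array. The mean log2 signal of that list was 0.97, 1.95, 2.60 and 2.30 in wild type replicates 1 to 4. In VRK1-deficient replicates 1 to 4 it was 0.19, 1.11, 1.14 and 0.64. As for the 4 genes, wild type replicate 1 was the lowest wild type array in the list, and it lay below VRK1-deficient replicates 2 and 3. The list mean differed by -1.18 between genotypes, and by -1.51 without wild type replicate 1. The part of the germ cell genes' difference in that of the 4 transcription factors was not tested, and in RNA of a whole testis fewer germ cells and less RNA per germ cell cannot be told apart.

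Tex101 had the highest signal in the pan germ cell list, and no measured gene of it was below background on every array. At an unadjusted p under 0.05 were all 7 measured genes of the list, against 29.6% of all tested genes. Only Tdrd1, a tudor protein of the germ cell piRNA pathway, passed the adjusted test, where 2.18% of all tested genes were called lower. Tdrd1 had a log2 difference of -1.11 (limma adjusted p = 0.0499). The call of Tdrd1 was lost with slide as a block (adjusted p = 0.0516) and with any 1 array other than wild type replicate 1 left out (adjusted p = 0.0769 to 0.151), and without that replicate the difference was -1.34. The other Tdrd1 probe gave -0.80 (adjusted p = 0.0987), and the mean of its probes -0.96 (adjusted p = 0.0543), which ends the call. The median over the 7 genes was -1.05, or -0.61 on slide 1 alone. In the list of differentiating spermatogonia and early spermatocytes, 9 of 9 measured genes had lower means, with a median of -0.94 (-0.55 on slide 1 alone) and 0 called by limma. At an unadjusted p under 0.05 were 7 of these 9 genes, against 29.6% of all tested genes. The mean of the latter list was 0.06, 0.97, 1.14 and 1.28 in wild type replicates 1 to 4 and -0.39, 0.20, 0.12 and -0.30 in VRK1-deficient replicates 1 to 4, and Stra8 had its highest signal.

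**Figure D2:**
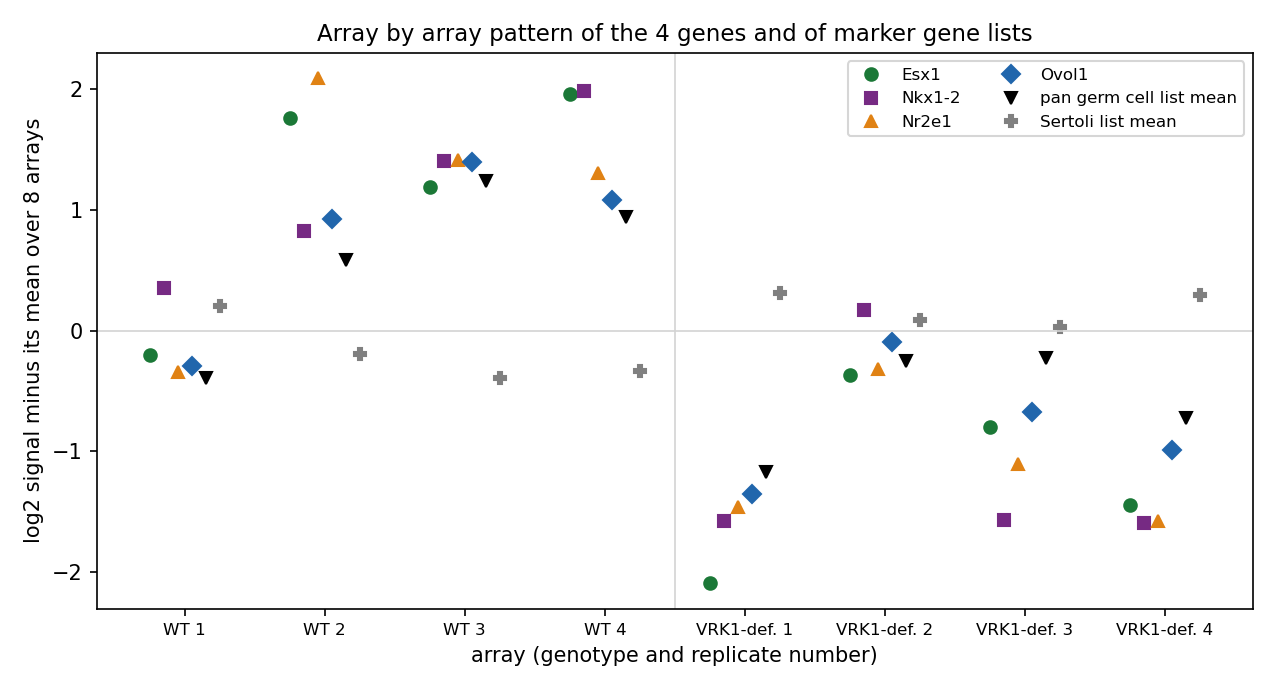
Log2 signal minus its mean over the 8 arrays (vertical axis) on each array (horizontal axis) for 1 probe of each of the 4 genes and for the means of the pan germ cell and Sertoli marker lists; each marker is 1 array, and the sideways shift only separates symbols. Wild type replicate 1 is nearer to the VRK1-deficient arrays than the other wild type arrays are for Esx1, Nr2e1, Ovol1 and the germ cell list, and Nkx1-2 is below background on the VRK1-deficient arrays.

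Somatic cell types were examined in the same way. Of 12 Sertoli genes, 10 had higher means in VRK1-deficient testes, as had 54.9% of all tested genes, with a median of 0.42, and Clu had the highest signal. The Sertoli list mean was 2.69, 2.30, 2.09 and 2.15 in wild type and 2.80, 2.58, 2.52 and 2.78 in VRK1-deficient replicates 1 to 4. limma called 0 of them. At an unadjusted p under 0.05 were 9, of which 2 had negative differences, Rhox5 at -1.08 and Cldn11 at -0.29, against 29.6% of all tested genes. The Leydig median was 0.35 with Hsd3b1 brightest, the endothelial median 0.35 with Cdh5 brightest, and the macrophage median 0.09 with Lyz2 brightest. On slides 1 and 2 the Leydig median was 0.44 and 0.13, the endothelial median 0.40 and 0.16, and the macrophage median 0.18 and 0.04. In the deposited values without scaling, each log2 difference is lower by the same amount, which gave 0.17 for the Leydig, 0.17 for the endothelial, -0.09 for the macrophage and 0.24 for the Sertoli median. With 1 array left out, the Leydig median was 0.22 to 0.48, the endothelial median 0.25 to 0.37 and the macrophage median -0.01 to 0.16. In the peritubular myoid list the median was -0.06 with Acta2 brightest, and 4 of 5 genes had negative differences. Only Cnn1, a smooth muscle actin-binding protein, was called, at -0.99 (limma adjusted p = 0.0444), where 2.18% of all tested genes were called lower. The difference of Cnn1 was -1.07 without wild type replicate 1, and its call was lost with any other array left out (adjusted p = 0.0663 to 0.147). The myoid median was 0.01 when the probes of a gene were averaged, -0.24 in the deposited values and -0.13 to 0.02 with 1 array left out.

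Markers of the tissues in which the 4 factors are best known were read beside them. Of the neural and glial list, Gfap, Neurod1 and Olig2 were not well above background on any array, and Tubb3 had the highest signal, with a median of -0.05 over 4 tested genes, or 0.12 on slide 1, -0.23 on slide 2 and -0.12 to 0.02 with 1 array left out. Of the trophoblast list, Tpbpa and Gcm1 were not well above background on any array. Plac1 was the brightest trophoblast gene, and the median over 3 tested genes was 0.11, with -0.06 in the deposited values, 0.30 on slide 2 and 0.01 to 0.33 with 1 array left out. All 8 epidermal and simple epithelial genes were tested, with Krt10 brightest and a median of 0.40, or 0.23 in the deposited values. The median covers unlike values. Differences were 1.57 for Krt8 and 0.82 for Krt18, and from -0.01 for Krt1 to 0.69 for Lor among the others, and limma called 0. In the red blood cell list Hba-a1 was brightest, and the median over 4 tested genes was -0.23, with 0.25 on slide 1, -0.70 on slide 2 and -0.48 to -0.05 with 1 array left out.

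Other members of the same families, and known partners or targets, were then read from the comparison across all probes. In that comparison, limma with Benjamini-Hochberg adjustment over 26948 probes called a probe at an adjusted p under 0.05. A gene was read at its probe with the highest mean signal. Of 17941 tested genes, 392 were lower in VRK1-deficient testes (2.18%) and 340 were higher (1.9%), with a median log2 difference of 0.04. At an unadjusted p under 0.05 were 5311 of them (29.6%). Over probes, 530 were lower and 452 higher. Without scaling between arrays, 852 probes were lower and 64 higher, and the median over all probes moved to -0.14. With quantile normalization, 358 were lower and 439 higher.

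Of 129 related genes, 123 had a probe and 87 were tested. Of 86 that were well above background on at least 1 array of each genotype, limma called 4 lower and 1 higher in VRK1-deficient testes, against 2.04% lower and 1.89% higher of 17858 such genes of the array. The remaining gene, Gtf2a1l, is given below without its call. The median log2 difference over the 87 was -0.003. Without wild type replicate 1, 42 were called, with Gtf2a1l counted, and so were 7641 of 26948 probes of the array. Among these 42 were Nkx6-2, Prrx2, Bcl11a, S100b, Tfap2c and Ascl2, which were not called with all 8 arrays. Leaving out any other single array gave 0 calls. None of the 5 calls was kept without the filter on dim probes.

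The closest relatives of the 4 factors were sparsely measured. Ovol2, which like Ovol1 maintains epithelial identity, differed by 0.15 (limma adjusted p = 0.579), with -0.03 in the deposited values, -0.06 within slide 2 and 0.03 to 0.25 with 1 array left out. Nr2e3, a photoreceptor nuclear receptor, was well above background on 1 array only. Ovol3 and Nkx1-1 were without a probe under those symbols.

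Of 8 tested genes of the NK homeobox family, 0 were called and 2 had an unadjusted p under 0.05, against 29.6% of all tested genes. The median was 0.06, with -0.11 in deposited values, -0.23 on slide 1 and -0.01 to 0.12 with 1 array left out. Nkx6-2, a homeobox gene of glial and neuronal patterning, had a log2 difference of -1.21 (limma adjusted p = 0.0811), and was called in the deposited values (adjusted p = 0.0467) and within slide 2 (adjusted p = 0.0435). Nkx2-5, a cardiac homeobox gene, was well above background on 3 wild type arrays and 1 VRK1-deficient array, so no fold is read, and its direction turned under normexp. Of 10 tested paired-like homeobox genes, 0 were called and 4 had an unadjusted p under 0.05, against 29.6% of all tested genes. Their median was 0.02, or -0.16 in deposited values, 0.23 under normexp and -0.11 to 0.11 with 1 array left out. Prrx2, a mesenchymal gene, had a log2 difference of 0.62 (limma adjusted p = 0.0559), and was called under normexp (adjusted p = 0.0406). In the deposited values the difference of Prrx2 was 0.44 (limma adjusted p = 0.237). With any 1 array other than wild type replicate 1 left out, its adjusted p was 0.0733 to 0.163.

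Of 8 tested genes of the NR2 nuclear receptors, 0 were called and 1 had an unadjusted p under 0.05, against 29.6% of all tested genes. The median was 0.06, or -0.11 in deposited values, -0.07 on slide 1, 0.22 on slide 2 and -0.002 to 0.12 with 1 array left out. Nr2f2, a receptor of interstitial and steroidogenic precursor cells, had a log2 difference of 0.30 (limma adjusted p = 0.142). Nr2f6 had one of -0.19 (limma adjusted p = 0.241). Of 12 tested partners and targets of NR2E1, 0 were called and 3 had an unadjusted p under 0.05, against 29.6% of all tested genes. Their median was 0.09, or -0.09 in deposited values, -0.01 on slide 1 and 0.06 to 0.14 with 1 array left out. Bcl11a, a corepressor partner, had a log2 difference of -0.59 (limma adjusted p = 0.0704), which was -0.85 on slide 1, -0.33 on slide 2 and -0.15 under normexp (adjusted p = 0.434). Another Bcl11a probe gave -0.80 (adjusted p = 0.0512), and the mean of its probes -0.70, which was called (adjusted p = 0.0492). S100b had one of 0.40 (limma adjusted p = 0.100).

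Of 14 tested partners and targets of OVOL1, 1 was called lower and 9 had an unadjusted p under 0.05, against 2.18% and 29.6% of all tested genes. Differences were negative for 6 and positive for 8, from -1.48 to 0.51, with a median of 0.22 (0.04 in deposited values) and a difference of the list mean of -0.17. Grhl1, a grainyhead factor that acts beside OVOL1 in epithelia, fell from -1.07 ± 0.62 to -2.54 ± 0.30 (SD, n = 4), a difference of -1.48 (limma adjusted p = 0.0454) that was -1.78 without wild type replicate 1. The other Grhl1 probe gave -1.42 and was not called (limma adjusted p = 0.0598). The mean of the Grhl1 probes gave -1.45 and was called (limma adjusted p = 0.0425). Id2, the target named above, had a log2 difference of 0.37 (limma adjusted p = 0.221). In the list of caudal progenitor genes that accompany Nkx1-2, 5 of 13 were tested. Of these 5, 1 was called lower and 3 had an unadjusted p under 0.05, against 2.18% and 29.6% of all tested genes. Fgf8, a growth factor of the caudal embryo, fell from -2.21 to -3.08, a difference of -0.87 (limma adjusted p = 0.0444) that was -0.97 without wild type replicate 1. Under normexp the difference of Fgf8 was -0.45 and the call was lost (adjusted p = 0.0726). The median of the list was -0.57, or -0.74 to -0.37 with 1 array left out.

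Of 4 tested placental genes set beside Esx1, 0 were called by limma and 2 had an unadjusted p under 0.05, against 29.6% of all tested genes. Their median was -0.37, and -0.01 under normexp. Tfap2c, a transcription factor of trophoblast and of germ cells, had a log2 difference of -1.48 (limma adjusted p = 0.0526), which was -0.95 on slide 1, -2.02 on slide 2 (adjusted p = 0.0412) and -0.60 under normexp (adjusted p = 0.0767). Tfap2c was also called in the deposited values (adjusted p = 0.0321). Ascl2, of the spongiotrophoblast, had one of -0.82 (limma adjusted p = 0.0715), which was -0.22 under normexp.

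Of 25 tested germ line transcription factors, 18 had negative differences, against 45.1% of all tested genes, and the median was -0.56. At an unadjusted p under 0.05 were 17, with Gtf2a1l counted, against 29.6% of all tested genes. Of 24 seen in both genotypes, limma called 2 lower and 1 higher, against 2.04% lower and 1.89% higher of such genes of the array. Dmrtb1, which guides the entry of spermatogonia into meiosis, had a difference of -1.81 (limma adjusted p = 0.0493) and of -2.12 without wild type replicate 1. With slide as a block the call of Dmrtb1 was lost (adjusted p = 0.0542). The other Dmrtb1 probe gave -1.69 and was not called (limma adjusted p = 0.0634). The mean of the Dmrtb1 probes gave -1.75 and was called (limma adjusted p = 0.0479). Sall4, a zinc finger factor of spermatogonial progenitors, had a difference of -0.99 at its brightest probe (limma adjusted p = 0.0493). Its other probe gave -0.33 (adjusted p = 0.275), the mean of its probes -0.66 (adjusted p = 0.0531), and slide as a block ended the call (adjusted p = 0.0540). Without wild type replicate 1 the difference of Sall4 was -1.17.

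Gtf2a1l, a germ cell form of a general transcription factor subunit, passed the filter on dim probes through its 4 wild type arrays only, so its test is not used. Gtf2a1l was at least 1.61-fold lower, and under normexp its log2 difference was -0.02. Bcl6b, a repressor in spermatogonial stem cells, had a difference of 0.61 (limma adjusted p = 0.0499) and of 0.70 without wild type replicate 1. The call of Bcl6b was lost with slide as a block (adjusted p = 0.0544), under normexp (adjusted p = 0.0544) and in the deposited values (adjusted p = 0.258).

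**Figure D3:**
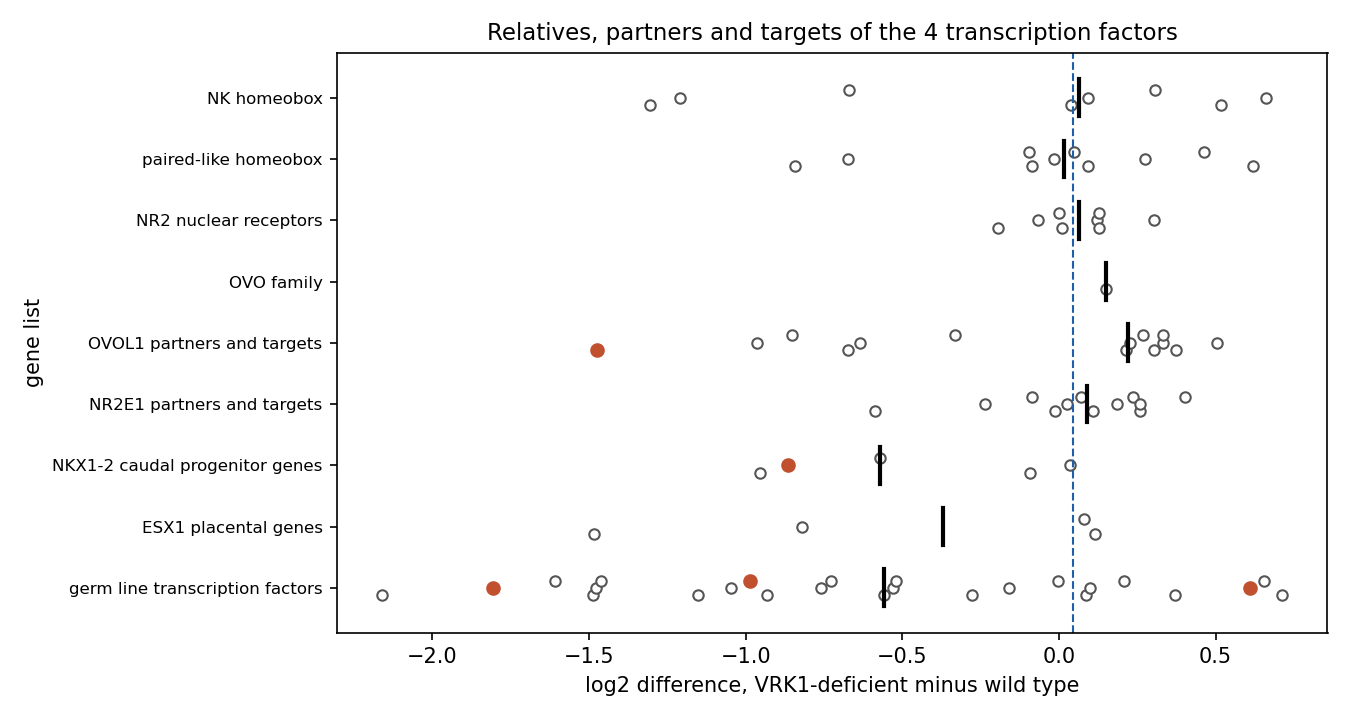
Log2 difference, VRK1-deficient minus wild type (horizontal axis), of each tested gene in 9 lists of relatives, partners and targets (vertical axis); filled circles are genes with a limma adjusted p under 0.05 that were seen in both genotypes, black bars are list medians and the dashed line is the median of all tested genes. The 5 filled circles lie in the OVOL1, NKX1-2 and germ line lists, and 1 of them, Bcl6b, lies to the right of 0.

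The 4 genes lie on 4 different chromosomes. The 4 genes were chosen by their lower signals, so their falling together is not a result, and their promoters are only described. Promoters of 3 of the genes were matched by symbol in RefSeq (GRCm38.p6), and the 250 bases before the transcription start are printed 5′ to 3′ for chrX:137120327-137120576, chr7:132599638-132599887 and chr10:42583591-42583840, all on the minus strand. Capitals mark the motifs found.
Esx1 promoter: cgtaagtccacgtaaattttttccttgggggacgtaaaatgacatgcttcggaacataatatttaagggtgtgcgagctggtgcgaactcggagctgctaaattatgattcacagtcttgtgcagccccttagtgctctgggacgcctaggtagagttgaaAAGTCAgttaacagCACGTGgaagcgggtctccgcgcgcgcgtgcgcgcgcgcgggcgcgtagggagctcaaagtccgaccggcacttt
Nkx1-2 promoter: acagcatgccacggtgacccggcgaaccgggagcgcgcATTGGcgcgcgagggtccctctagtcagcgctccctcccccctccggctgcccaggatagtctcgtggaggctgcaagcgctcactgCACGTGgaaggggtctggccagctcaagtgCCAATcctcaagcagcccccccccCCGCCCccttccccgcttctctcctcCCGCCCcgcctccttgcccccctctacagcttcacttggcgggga
Nr2e1 promoter: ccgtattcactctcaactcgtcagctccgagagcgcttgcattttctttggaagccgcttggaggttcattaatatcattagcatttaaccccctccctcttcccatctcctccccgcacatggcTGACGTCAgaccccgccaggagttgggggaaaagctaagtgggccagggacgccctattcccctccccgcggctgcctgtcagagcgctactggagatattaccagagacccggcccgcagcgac

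Both strands were searched for 9 motifs, which were picked after these sequences had been seen. They were the E-box CACGTG, the cAMP response element TGACGTCA, the OVO core CCGTTA, the NR2E1 half-site AAGTCA, the homeodomain core TAATTA, the GC box GGGCGG, the TATA box read as TATAAA, the box read as CCAAT, and the E2F site TTCCCGC. The Esx1 and Nkx1-2 promoters each held CACGTG, which is in 6.02% of 32851 promoter windows of the same length. The Nr2e1 promoter held TGACGTCA, which is in 1.55% of them. The Esx1 promoter also held AAGTCA, which is in 13.1%. The Nkx1-2 promoter held GGGCGG, in 32.7% of windows, and CCAAT, in 33.8%. The matches did not overlap each other. No motif was found in all 3 promoters, and a match is a description of the letters only.

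The 3 promoters were rich in CpG, the dinucleotide at which DNA is methylated. The Esx1 promoter held 24 CpG, more than 88.0% of windows. The Nkx1-2 promoter held 19, more than 80.3% of windows. The Nr2e1 promoter held 15, more than 72.7% of windows, and the median over all windows was 6.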

How the data were processed

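RNA of 8 testes samples was measured, 1 Agilent 1-color array each. Per the labels, the authors extracted signals with Agilent Feature Extraction 9.5.3.1, and the deposited values are its background-subtracted linear intensity, unscaled between arrays. Here log2 intensities were scaled to the 75th percentile without control and outlier spots, and replicate spots were averaged per probe. A probe was tested when at least 4 arrays read it well above background, using limma 3.58.1 in R 4.3.3. Probes were named through RefSeq (22704 by accession, 6849 by symbol, 3167 by synonym), and 8454 kept the name in the array files.

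The members and lists were chosen with earlier results of these data known. Named genes were every member probe, the 5 nearest genes of each member but Nkx1-2 (left out after its signals were seen), the OVO family, Nkx1-1 and Nr2e3, called genes of each related list or otherwise the 2 with the smallest p, and each marker list's brightest and undetected genes, except 2 genes that are not reported here. Vrk1, Id2, the Sertoli genes Rhox5 and Cldn11 and the called markers Tdrd1 and Cnn1 were added after their values were seen. Alternatives were other scalings, background corrections, filters and tests, slide and replicate blocks, single slides and leaving out each array. limma was also run on simulated data, but the outcome is not reported here and no result above rests on it. Positions are those of mm7 and were not converted.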

Additional observations from a re-analysis of the deposited data

Results flagged for a closer look

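Among 115 groups of 4 arrays with at least 1 array well above background, 6 had 1 array far from the other 3, and chance gives about 1 in 20. The measure is the gap of that array to its nearest neighbor over the range of the group. Wild type replicate 1 was the lowest wild type array for Grhl1 (0.864), Map3k9 (0.897), Plk5 (0.855) and the mean of the caudal progenitor list (0.864). For Bcl11a, wild type replicate 2 was highest (0.965). For Bcl6b, VRK1-deficient replicate 3 was highest (0.876).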

How the results depend on the processing

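Esx1, Nr2e1 and Ovol1 probe A_52_P441954 kept a lower signal in VRK1-deficient testes under each alternative run. With any 1 array left out, the log2 difference was -2.81 to -2.04 for Esx1, -2.71 to -1.90 for Nr2e1 and -1.91 to -1.35 for Ovol1. Under normexp it was 0.043 for Nkx1-2 A_51_P470304, -0.66 for Nr2e1 and -0.49 for Ovol1 A_52_P441954. For 2 probes below background on every VRK1-deficient array only the log2 bound was followed. For Nkx1-2 A_52_P144791 it was 0.50 to 1.05 with 1 array left out and 0.036 under normexp. For Ovol1 A_51_P225827 it was 0.19 to 0.82 with 1 array left out, -0.078 under normexp and -0.056 on slide 1, where a negative value means that no fold is shown.

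The number of called probes, 982, was 626 with slide as a block, 3 within slide 1, 1920 with trend and robust variances, 17 without the filter on dim probes, and 217 by the methods' t-test after Benjamini-Hochberg adjustment. That t-test called 0 related genes after adjustment, and 774 probes at an unadjusted p up to 0.05 with 2-fold or larger changes. With 1 array left out, limma called 3 to 7641 probes. Same-numbered samples were not treated as pairs in the main test. Their deviations correlated at 0.529, 0.117, 0.21 and -0.189 for replicates 1 to 4, which does not settle whether the numbers mark pairs. With the replicate block 2280 probes and 21 related genes, with Gtf2a1l counted, were called. Among these were Nkx6-2, Tfap2c, Ascl2 and Prrx2 (limma adjusted p = 0.0216, 0.0329, 0.0346 and 0.0434), which the main test did not call.

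The number of related genes called, 6 with Gtf2a1l counted, was 14 in the deposited values, 11 under normexp, 12 among probes well above background on all 8 arrays, 0 within slide 1, 13 within slide 2, 11 when a gene's probes were averaged, and 0 to 42 with 1 array left out. Gtf2a1l, whose test is not used, is counted in the 6, the deposited values, the averaged probes and the fit without wild type replicate 1. Over all probes, 982 of 26948 were called in the main fit, 916 in the deposited values, 1386 under normexp and 1059 within slide 2. Called were 1376 of 24371 probes well above background on all 8 arrays, and 7641 of 26948 without wild type replicate 1. With a gene's probes averaged, 552 of 17941 genes were lower and 499 higher. Of the 5 genes nearest to each member, those well above background on all 8 arrays included 2 for Esx1 and 2 for Nr2e1. Normexp retained 2 for Esx1, 0 for Nr2e1 and 1 for Ovol1.

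Medians in the deposited values were -0.16 for paired-like homeobox genes, -0.11 for NR2 receptors, 0.042 for OVOL1 partners, -0.0885 for NR2E1 partners and -0.55 for placental genes. Under normexp they were 0.23 for paired-like and -0.011 for placental genes. Within slide 1 they were -0.23 for NK homeobox genes, -0.074 for NR2 receptors and -0.0087 for NR2E1 partners, and within slide 2 the NR2 median was 0.22. Nkx2-5 reversed to 0.13 under normexp, and Ovol2 to -0.027 in the deposited values and -0.063 within slide 2. In the deposited values, which are not scaled, each log2 difference is lower by the same amount. For the other reversals and shifts the cause was not tested.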
